A study of Mus musculus with 12 samples.

Results

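The enzymes of serine synthesis and of folate-bound one-carbon metabolism were followed in C2C12 myotubes exposed to the mitochondrial uncoupler BAM15. The 10 genes were taken by symbol from the 15113 genes of the count table, namely Phgdh, Psat1, Psph, Shmt1 and Mthfd1, whose products act in the cytosol, and Shmt2, Mthfd2, Mthfd2l, Mthfd1l and Aldh1l2, whose products act in mitochondria. No expression value entered this choice, although results of these data were known when it was made. C2C12 is an established mouse myoblast line whose cells fuse into myotubes when the growth serum is exchanged for a small amount of horse serum. All cultures were differentiated in this way and then received 20 µM BAM15 dissolved in DMSO or the vehicle for 16 h, with 6 libraries per condition. BAM15 carries protons across the inner mitochondrial membrane, so that respiration runs without a matching synthesis of ATP. RNA was read with QuantSeq, a method that sequences the 3′ end of polyadenylated transcripts.

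Serine is made from the glycolytic intermediate 3-phosphoglycerate by PHGDH, PSAT1 and PSPH acting in turn. Serine hydroxymethyltransferase then passes a carbon of serine to tetrahydrofolate and releases glycine, and the carbon is oxidized stepwise to formate, which feeds purine and thymidylate synthesis and the methionine cycle. The steps run in parallel in the cytosol (SHMT1 and the trifunctional MTHFD1) and in mitochondria (SHMT2, MTHFD2 or MTHFD2L, and MTHFD1L), while ALDH1L2 oxidizes mitochondrial 10-formyltetrahydrofolate to carbon dioxide and yields NADPH. Several of these genes are known targets of the transcription factor ATF4.

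Total counts ranged from 13983725 to 18866728 per library. The 13 myotube markers were detected in every library, with a summed normalized count of 436632 to 570922 after BAM15 and 462907 to 522840 after vehicle. Of these 13 genes, 2 rose and 3 fell at an adjusted p below 0.01, none changed by more than 2-fold, and their median log2 fold change was −0.11. The genes that rose were Myog, a differentiation factor (0.37), and Acta1, skeletal actin (0.46), and those that fell were Ckm, muscle creatine kinase (−0.17), Mylpf, a myosin light chain (−0.23), and Mb, myoglobin (−0.34). Acta1 passed both within libraries numbered 1 to 3 (0.55) and within those numbered 4 to 6 (0.34). Myog (0.33 and 0.39), Mylpf (−0.13 and −0.35) and Mb (−0.19 and −0.54) passed only within numbers 4 to 6. Ckm (−0.17 and −0.19) passed within neither. Myh3, embryonic myosin, did not pass in all libraries (0.08). It rose within libraries numbered 1 to 3 (0.24, edgeR adjusted p = 0.00551) and not within those numbered 4 to 6 (−0.12). The same held for Myh8 (0.16 in all libraries, 0.34 and −0.06 within the sets). Myh1 did not pass in all libraries (−0.31) but fell within both sets (−0.21 and −0.43). Tnnt3 (−0.14 and −0.52) and Tnnc2 (−0.01 and −0.33) fell only within numbers 4 to 6. Ttn, Ryr1 and Cacna1s passed neither in all libraries nor within a set. The 8 cycling-cell genes fell together, from a sum of 6956 to 7602 after vehicle to 2460 to 2775 after BAM15, with log2 fold changes of −1.80 for Mki67, −1.46 for Top2a and −1.43 for Cdk1 (−2.17 and −1.03 within these sets of numbers), and 7 of the 8 passed all thresholds. The 6 markers of undifferentiated myoblasts summed to 4368 to 4839 after BAM15 and 6310 to 7067 after vehicle. This sum was lower after BAM15 without overlap, but the genes did not all fall. At an adjusted p below 0.01, Myod1 (log2 fold change −1.03), Pax7 (−0.93) and Cdh15 (−0.83) fell. Cdh15 was the most abundant, with a mean of 4367 after vehicle and 2460 after BAM15. Myf5 rose (1.69, and 1.00 and 2.06 within the sets), and Vcam1 (0.21) and Cd34 (0.02) did not pass. By myotube sums the BAM15 libraries numbered 4 to 6 stood apart from those numbered 1 to 3, with 436632 to 479705 against 532961 to 570922. Across genes, however, BAM15 library 4 was closer to libraries 1 to 3 than to libraries 5 and 6. The chi-square per gene between its counts and theirs was 15.5 to 26.3 for libraries 1 to 3. It was 30.5 for library 5 and 28.9 for library 6, a larger value meaning less alike. No source names a batch, so values within numbers 1 to 3 and within numbers 4 to 6 are given for each of the 10 enzymes and for other named genes where the split bears on the statement. In bulk RNA fewer cells of a kind and less RNA per cell cannot be told apart. The labels do not say that the libraries came from separate cultures, and the p-values measure the spread between these libraries.

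BAM15 was compared with vehicle by the quasi-likelihood test of edgeR, with p-values adjusted after Benjamini-Hochberg over the 12730 genes that passed a filter on low counts, as all 10 enzymes did. A gene was called when its adjusted p was below 0.01, its mean normalized count above 50 and its change more than 2-fold. By this rule 5 of the 10 enzymes rose with BAM15 (Phgdh, Psph, Shmt2, Mthfd2 and Aldh1l2) and 0 fell, where 3.70% of all tested genes rose and 3.58% fell. DESeq2 and limma-voom also called 0 lower, and 0 fell at an unadjusted p below 0.05, where 28.5% of all tested genes did. By the adjusted p alone 7 rose and 0 fell, the further genes being Psat1 and Mthfd1l, where 22.0% of all tested genes rose and 20.3% fell. These 7 genes were also the ones whose 6 BAM15 libraries all lay above the 6 vehicle libraries, which 17.1% of tested genes did, while 17.0% lay wholly below. Shmt1, Mthfd1 and Mthfd2l did not pass the test. The median log2 fold change of the 10 enzymes was 1.07, and that of all tested genes was 0.02. Among the 5 mitochondrial enzymes 3 were called and 4 passed by the adjusted p alone, with a median log2 fold change of 1.60. Among the 5 cytosolic enzymes 2 were called and 3 passed by the adjusted p alone, with a median of 0.91, and all of these were enzymes of serine synthesis. Neither of the 2 cytosolic folate enzymes, Shmt1 and Mthfd1, passed.

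**Figure D1:**
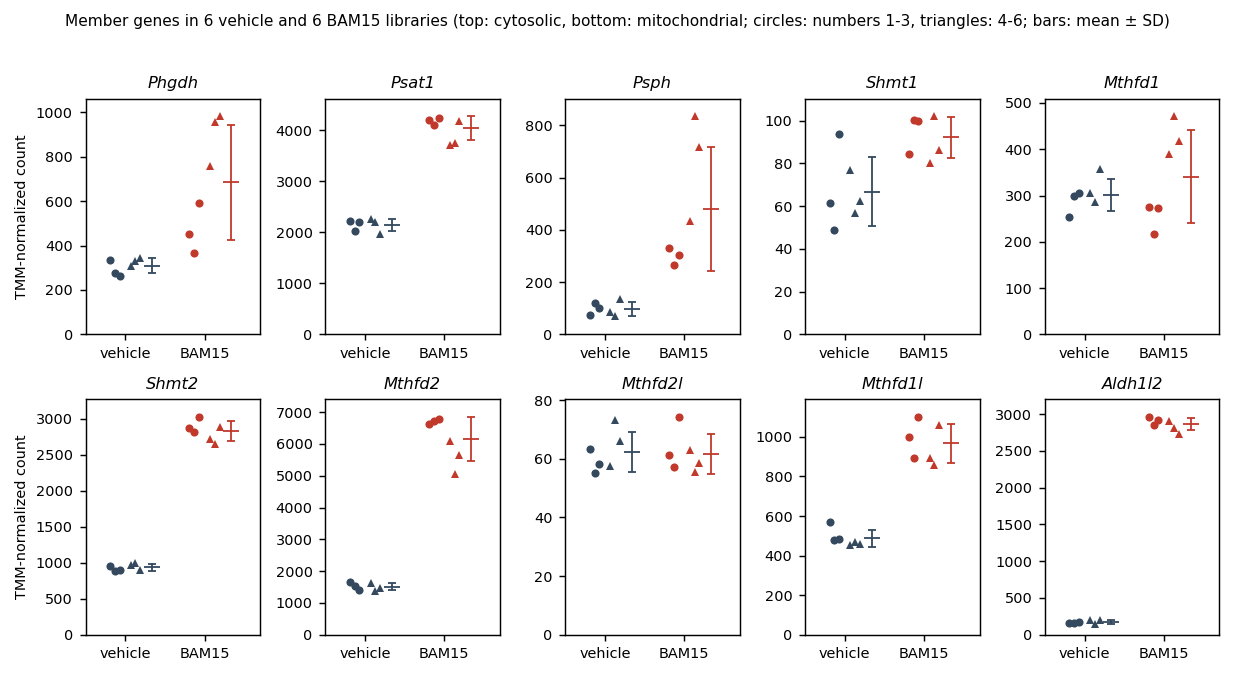
Normalized counts (y axis, counts scaled by TMM to a common library size, starting at 0) of the 10 enzymes in the vehicle and BAM15 libraries, with cytosolic enzymes in the top row and mitochondrial enzymes in the bottom row. Circles are libraries numbered 1 to 3, triangles those numbered 4 to 6, and bars the mean ± SD of 6 libraries. The conditions are separated in 7 panels and overlap in those of Shmt1, Mthfd1 and Mthfd2l.

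**Figure D2:**
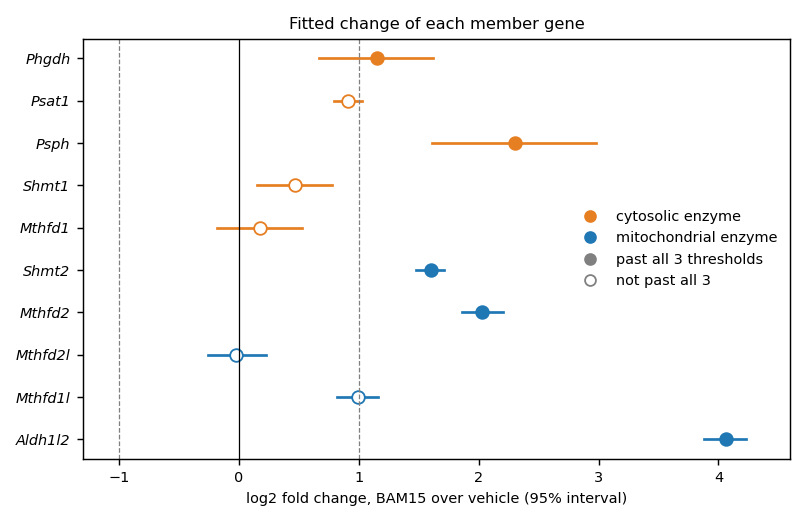
Log2 fold change of BAM15 over vehicle (x axis) with its 95% interval for each enzyme, cytosolic in orange and mitochondrial in blue, filled where the gene passed all 3 thresholds and with dashed lines at a 2-fold change. Aldh1l2 stands at 4.06, and the intervals of Mthfd1 and Mthfd2l include 0.

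All 3 enzymes of serine synthesis had higher RNA levels after BAM15. Phgdh (chr3:98313170-98339990, minus strand, GRCm38) encodes the phosphoglycerate dehydrogenase that opens the pathway. Its normalized count was 263 at the lowest, 319 at the median and 345 at the highest among vehicle libraries, and 367, 675 and 982 among BAM15 libraries. The conditions did not overlap, but the lowest BAM15 library lay just above the highest vehicle library. Phgdh rose from 309 ± 33.7 to 685 ± 258 normalized counts (SD, n = 6), a log2 fold change of 1.15 (SE 0.22, edgeR adjusted p = 6.68e-04). The large SD after BAM15 followed the library numbers, with a mean of 470.4 in numbers 1 to 3 and 900.2 in numbers 4 to 6. The log2 fold change was 0.69 within numbers 1 to 3 (edgeR adjusted p = 0.00468), which is less than 2-fold, and 1.45 within numbers 4 to 6 (edgeR adjusted p = 4.36e-07), and over all settings tried the adjusted p ranged from 3.99e-07 to 0.00468. At the 3′ end of Phgdh (400 bases), 29.9% of the 50-base windows also occur in annotated pseudogenes or predicted genes, none of which is in the count table, and reads from these windows could have been assigned elsewhere or dropped.

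Psat1 (chr19:15904678-15947337, minus strand), the phosphoserine aminotransferase of the second step, moved less but with little spread. Its normalized count was 1962, 2201 and 2257 (lowest, median and highest) after vehicle and 3716, 4145 and 4244 after BAM15. Every BAM15 library was far above every vehicle library. The mean rose from 2147 ± 120.4 to 4034 ± 236 (SD, n = 6), a log2 fold change of 0.91 (SE 0.06, edgeR adjusted p = 3.2e-09), which stays below the 2-fold threshold. It was 0.96 within numbers 1 to 3 and 0.85 within numbers 4 to 6, where the means after BAM15 were 4184 and 3884.

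Psph (chr5:129765558-129787449, minus strand), the phosphatase that releases serine, had the second largest change of the 10 genes in all libraries, although it came after Mthfd2 and Shmt2 within numbers 1 to 3. Vehicle libraries held 70.1, 93.4 and 136 normalized counts (lowest, median and highest) and BAM15 libraries 264, 382 and 834. The conditions did not overlap, and the BAM15 libraries numbered 4 to 6 were all above those numbered 1 to 3. The mean rose from 97.6 ± 26.1 to 480.4 ± 238 (SD, n = 6), a log2 fold change of 2.30 (SE 0.32, edgeR adjusted p = 4.76e-05). The mean after BAM15 was 299 in numbers 1 to 3 and 662 in numbers 4 to 6, and the log2 fold changes were 1.62 and 2.74. Psph passed all thresholds in both sets of libraries, and the difference between the sets was not tested.

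Neither cytosolic folate enzyme passed the test. Shmt1 (chr11:60788104-60811718, minus strand) encodes the cytosolic serine hydroxymethyltransferase. It had 48.9, 62.0 and 93.6 normalized counts (lowest, median and highest) after vehicle and 80.1, 93.0 and 102 after BAM15. The highest vehicle library lay within the range of the BAM15 libraries. The means were 66.7 ± 16.1 and 92.2 ± 9.66 (SD, n = 6), with a log2 fold change of 0.47 (SE 0.15, 95% interval 0.15 to 0.78, edgeR adjusted p = 0.0148), short of the threshold of 0.01. It was below 0.01 with DESeq2 (0.00922), with limma-voom (0.00935) and without vehicle replicate 3 (0.00203), and at most 0.0708 in the other settings, while the change stayed under 2-fold in all of them. The log2 fold change was 0.47 within numbers 1 to 3 and 0.45 within numbers 4 to 6. Smcr8 is transcribed the other way and its exons overlap 184 of the final 400 bases of Shmt1. Without a stated counting strand the reads of both genes cannot be told apart there. The log2 fold change of Smcr8 was 0.22 (edgeR adjusted p = 0.032).

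Mthfd1 (chr12:76255298-76319803, plus strand) encodes the cytosolic enzyme that joins dehydrogenase, cyclohydrolase and formyltetrahydrofolate synthetase activities in 1 protein. Its normalized count was 254, 303 and 357 (lowest, median and highest) after vehicle and 216, 332 and 471 after BAM15, so the BAM15 libraries lay on both sides of the vehicle libraries. The means were 301 ± 33.8 and 341 ± 99.8 (SD, n = 6), with a log2 fold change of 0.18 (SE 0.17, 95% interval −0.18 to 0.53, edgeR adjusted p = 0.392). All BAM15 libraries numbered 4 to 6 were above those numbered 1 to 3, with means of 426 and 255. The direction turned with this split, since the log2 fold change was −0.17 within numbers 1 to 3 (edgeR adjusted p = 0.228) and 0.42 within numbers 4 to 6 (edgeR adjusted p = 0.0115), with a range of 0.0115 to 0.759 over all settings.

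Of the 5 mitochondrial enzymes 4 rose, and Mthfd2l did not pass the test. Shmt2 (chr10:127517123-127522444, minus strand) encodes the mitochondrial serine hydroxymethyltransferase. Vehicle libraries held 885, 931 and 994 normalized counts (lowest, median and highest) and BAM15 libraries 2642, 2843 and 3025. The libraries of each condition lay close together and the conditions were far apart. The mean rose from 935 ± 45.0 to 2826 ± 136 (SD, n = 6), a 3.02-fold change and a log2 fold change of 1.60 (SE 0.05, edgeR adjusted p = 2.5e-12). It was 1.66 within numbers 1 to 3 and 1.51 within numbers 4 to 6. Exons of Ndufa4l2, on the other strand, overlap 16 bases of the 3′ end of Shmt2. That gene held 1.29 ± 1.01 normalized counts after vehicle and 19.9 ± 2.69 after BAM15 (SD, n = 6, edgeR adjusted p = 5.58e-07).

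Mthfd2 (chr6:83305691-83325908, minus strand) encodes the mitochondrial methylenetetrahydrofolate dehydrogenase and cyclohydrolase that is typical of embryonic and proliferating cells. It had 1389, 1501 and 1654 normalized counts (lowest, median and highest) after vehicle and 5056, 6359 and 6799 after BAM15. The conditions did not overlap. The mean rose from 1510 ± 114 to 6158 ± 695 (SD, n = 6), a 4.08-fold change and a log2 fold change of 2.03 (SE 0.08, edgeR adjusted p = 2.48e-11). Here the BAM15 libraries numbered 4 to 6 (mean 5600) were below those numbered 1 to 3 (mean 6716), the opposite order from Phgdh, Psph and Mthfd1. The log2 fold changes were 2.13 within numbers 1 to 3 and 1.90 within numbers 4 to 6.

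Mthfd2l (chr5:90931117-91021368, plus strand) encodes the second mitochondrial enzyme of the same reactions, which is found in adult tissues. Its normalized count was 55.3, 60.8 and 73.2 (lowest, median and highest) after vehicle and 55.4, 59.8 and 74.3 after BAM15. The ranges of the conditions were almost the same. The means were 62.3 ± 6.67 and 61.6 ± 6.79 (SD, n = 6), with a log2 fold change of −0.02 (SE 0.12, edgeR adjusted p = 0.922). The 95% interval of −0.26 to 0.23 leaves out changes of the size seen in Mthfd2. Within numbers 1 to 3 the log2 fold change was 0.12 and within numbers 4 to 6 it was −0.17.

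Mthfd1l (chr10:3973118-4167081, plus strand) encodes the mitochondrial formyltetrahydrofolate synthetase that releases formate. Vehicle libraries held 454, 473 and 572 normalized counts (lowest, median and highest) and BAM15 libraries 859, 946 and 1101, without overlap. The mean rose from 487 ± 43.6 to 967 ± 100.3 (SD, n = 6), a 1.99-fold change and a log2 fold change of 0.99 (SE 0.08, edgeR adjusted p = 6.43e-08). Mthfd1l therefore lay at the 2-fold threshold and just failed it. Vehicle replicate 1 was well above the other vehicle libraries, and without it the log2 fold change was 1.04. The values within numbers 1 to 3 and 4 to 6 were 0.96 and 1.01.

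Aldh1l2 (chr10:83487450-83534140, minus strand), the mitochondrial 10-formyltetrahydrofolate dehydrogenase, changed most of the 10 genes. It had 144, 166 and 202 normalized counts (lowest, median and highest) after vehicle and 2733, 2875 and 2963 after BAM15. All BAM15 libraries were more than 10-fold above the highest vehicle library. The mean rose from 172 ± 23.3 to 2864 ± 83.8 (SD, n = 6), a 16.7-fold change and a log2 fold change of 4.06 (SE 0.08, edgeR adjusted p = 4.21e-14), with 4.16 within numbers 1 to 3 and 3.95 within numbers 4 to 6. The final 400 bases of Aldh1l2 lie wholly within exons of D10Wsu102e, which is transcribed the other way, and the counting strand is not stated. D10Wsu102e itself had 778 ± 62.8 normalized counts after vehicle and 779.6 ± 123 after BAM15 (SD, n = 6), with a log2 fold change of 0.00 (edgeR adjusted p = 0.987). Aldh1l1, the cytosolic enzyme of the same reaction, was near the limit of detection, with 6.94 ± 4.10 normalized counts after vehicle and 3.41 ± 1.73 after BAM15 (SD, n = 6), and did not pass the filter on low counts.

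**Figure D3:**
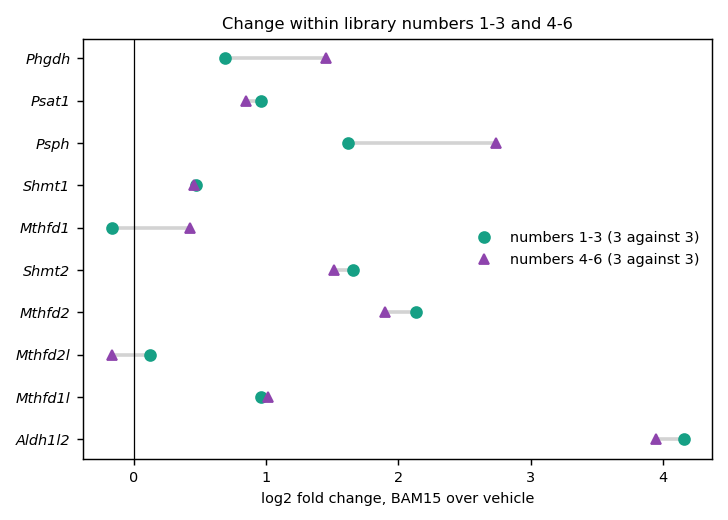
Log2 fold change of BAM15 over vehicle (x axis) of each enzyme within libraries numbered 1 to 3 (circles) and within those numbered 4 to 6 (triangles), 3 libraries of each condition at a time. Phgdh, Psph and Mthfd1 lie further right in numbers 4 to 6, and the points of Mthfd1 and Mthfd2l fall on both sides of 0.

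To contrast the compartments, the log2 ratio of the mitochondrial to the cytosolic enzyme of the same reaction was taken within each library and compared between conditions with an exact two-sided permutation test over the 924 assignments of the 12 libraries to 2 groups of 6. Apart from a prior count of 0.5 added to each gene, such a ratio does not depend on how libraries are scaled. It was computed for 4 pairs, 3 of which share Mthfd1. The ratio of Shmt2 to Shmt1 was 3.26 to 4.16 after vehicle and 4.68 to 5.08 after BAM15. All BAM15 libraries lay above all vehicle libraries. The mean log2 ratio rose from 3.83 ± 0.34 to 4.94 ± 0.17 (SD, n = 6), by 1.10 (SE 0.15, exact permutation p = 0.00216, which is the smallest this design allows, and 0.00433 after Benjamini-Hochberg adjustment over the 4 pairs). The difference was 1.14 within numbers 1 to 3 and 1.07 within numbers 4 to 6. The ratio of Shmt2 to Shmt1 was thus higher after BAM15 in both sets of libraries.

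The ratio of Mthfd2 to Mthfd1 was 2.03 to 2.70 on the log2 scale after vehicle and 3.42 to 4.95 after BAM15, again without overlap. Its mean rose by 1.89 (SE 0.26, exact permutation p = 0.00216, adjusted 0.00433), and by 2.31 within numbers 1 to 3 and 1.48 within numbers 4 to 6. The ratio of Mthfd1l to Mthfd1 was 0.37 to 1.17 after vehicle and 0.87 to 2.04 after BAM15, so that the conditions overlapped. Its mean rose by 0.86 (SE 0.23, exact permutation p = 0.00433, adjusted 0.00577), and by 1.13 and 0.58 within the sets of numbers. The ratio of Mthfd2l to Mthfd1 did not differ beyond the spread, with a change of −0.15 (SE 0.23, exact permutation p = 0.513, adjusted 0.513). That change was 0.29 within numbers 1 to 3 and −0.58 within numbers 4 to 6, where Mthfd1 was higher. With 3 libraries against 3 these within-set differences were not tested.

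**Figure D4:**
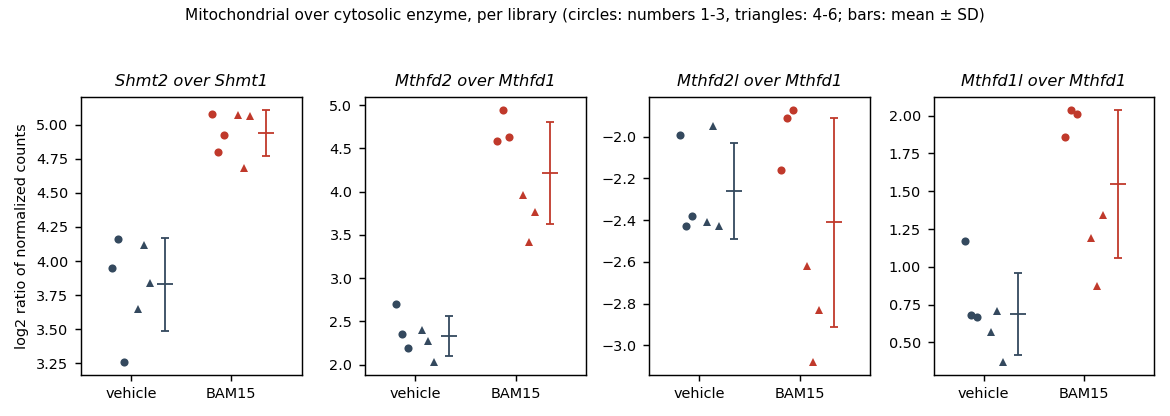
Log2 ratio of the normalized counts of a mitochondrial enzyme to those of its cytosolic counterpart (y axis, a different range in each panel) in every vehicle and BAM15 library. Circles are libraries numbered 1 to 3, triangles those numbered 4 to 6, and bars the mean ± SD of 6 libraries. The conditions are separated for Shmt2 over Shmt1 and for Mthfd2 over Mthfd1 and overlap in the other panels.

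The promoters of Shmt2 and Shmt1 and of Mthfd2 and Mthfd1 are shown because the RNA of these paired enzymes moved by different amounts. RefSeq windows of 300 bases, from 250 bases before to 50 bases after the start (GRCm38.p6), were matched for 9 of the 10 genes, the exception being Aldh1l2. Psat1 has windows at chr19:15925010-15925309 and at chr19:15924573-15924872. The stretches printed here run from 150 to 11 bases before the start, 5′ to 3′ in the direction of the gene, with capitals for a CCAAT box (CCAAT, or ATTGG on the other strand) or a GC box (GGGCGG, or CCGCCC on the other strand). They lie at chr10:127522455-127522594 for Shmt2, chr11:60811276-60811415 for Shmt1 and chr6:83317615-83317754 for Mthfd2, all on the minus strand, and at chr12:76255082-76255221 on the plus strand for Mthfd1. Those of Shmt1 and Mthfd2 lie in introns of longer GENCODE transcripts of these genes, and that of Mthfd1 overlaps an exon of the antisense transcript Gm47525.
Shmt2: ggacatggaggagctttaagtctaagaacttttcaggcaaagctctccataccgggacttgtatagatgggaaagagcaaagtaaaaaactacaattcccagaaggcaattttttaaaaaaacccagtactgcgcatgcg
Shmt1: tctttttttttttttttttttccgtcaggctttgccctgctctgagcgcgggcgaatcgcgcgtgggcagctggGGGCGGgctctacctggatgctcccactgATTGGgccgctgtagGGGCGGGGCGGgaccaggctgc
Mthfd2: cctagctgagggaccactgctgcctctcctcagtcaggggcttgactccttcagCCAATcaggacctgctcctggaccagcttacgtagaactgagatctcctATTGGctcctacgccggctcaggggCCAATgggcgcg
Mthfd1: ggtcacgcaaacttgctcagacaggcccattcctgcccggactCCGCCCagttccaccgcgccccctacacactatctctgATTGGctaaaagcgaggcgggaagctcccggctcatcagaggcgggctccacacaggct
The Shmt2 stretch holds neither box, Mthfd2 holds CCAAT boxes alone, and both cytosolic genes hold both kinds. Over the whole 300-base windows and both strands, a CCAAT box was found in 6 of the 9 genes, where 37.4% of the 32851 RefSeq windows hold it, and a GC box in 6, where 35.7% do. A gene was counted when any of its windows held the letters, while the percentages are of single windows. Psat1 holds CCAAT boxes in the former of its windows and GC boxes in the latter. The C/EBP-ATF composite site TGATGNAA, which ATF4 can bind with a C/EBP partner, was found in 0 of the 9 genes (3.97% of all windows), as were the cAMP response element TGACGTCA (1.79%) and the E-box CACGTG (7.15%). The antioxidant response element TGACNNNGC was found in Phgdh and Psph (12.4% of all windows). These matches describe the letters within these windows and nothing beyond them.

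Other genes of the pathway were read from lists for folate uptake and polyglutamation, folate users and interconversion, glycine cleavage, serine and glycine transport and breakdown, and the methionine cycle. Of the 33 genes considered, 28 are in the count table and 24 passed the filter on low counts. By all 3 thresholds 1 of these 24 was called, and by the adjusted p alone 5 rose and 2 fell while 17 did not pass. Over all tested genes 3.70% rose by the 3 thresholds, and by the adjusted p alone 22.0% rose and 20.3% fell, so the share of these genes that rose was near that of all genes. The median log2 fold change was 0.09, beside 0.02 over all tested genes. Slc19a1, the reduced folate carrier of the plasma membrane, was the gene that rose past all thresholds. Its normalized count was 95.1 to 129.8 after vehicle and 241 to 298 after BAM15, without overlap, and the mean rose from 111 ± 12.8 to 268 ± 23.1 (SD, n = 6), a log2 fold change of 1.27 (SE 0.09, edgeR adjusted p = 2.24e-08). It was 1.36 within numbers 1 to 3 and 1.17 within numbers 4 to 6. Of the 6 tested genes for folate uptake and polyglutamation it was the only one that passed by the adjusted p in all libraries. The split by library number altered the picture for other genes, which were picked out after their values were seen. Ggh, which removes glutamates from folate, had a log2 fold change of −0.86 within numbers 1 to 3 (edgeR adjusted p = 0.004) and 0.20 within numbers 4 to 6. Within numbers 4 to 6 but not 1 to 3, Fpgs, which adds glutamates to folate, rose (0.76), and Slc46a1, a proton-coupled folate transporter (−0.58), and Sfxn3, a relative of Sfxn1 (−0.29), fell at an adjusted p below 0.01. The difference between the sets was not tested.

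Tyms, the thymidylate synthase that uses a folate-bound carbon for DNA synthesis, fell without passing the 2-fold threshold. Its normalized count was 237 to 288 after vehicle and 138 to 204 after BAM15, without overlap, and the mean went from 254 ± 17.7 to 162 ± 25.4 (SD, n = 6), a log2 fold change of −0.64 (SE 0.10, edgeR adjusted p = 6.37e-05). It was −0.78 within numbers 1 to 3 and −0.54 within numbers 4 to 6. The cycling-cell genes fell in the same libraries, from a summed normalized count of 6956 to 7602 to one of 2460 to 2775, and the part of that shift in the value of Tyms was not tested. Among the other folate users, Gart, a trifunctional enzyme of purine synthesis, rose by 0.33 on the log2 scale and Mtrr, the reductase that keeps methionine synthase active, by 0.63 (0.44 within numbers 1 to 3 and 0.79 within numbers 4 to 6). Within numbers 1 to 3 the change of Gart was 0.19 (edgeR adjusted p = 0.0441), short of the threshold, and within numbers 4 to 6 it was 0.45. The remaining 4 of the 7 tested genes of this list did not pass.

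Sfxn1, a mitochondrial serine transporter, was the 1 of 5 tested genes of serine and glycine transport and breakdown that passed. It rose from 1097 ± 96.9 to 1658 ± 174 normalized counts (SD, n = 6), a log2 fold change of 0.60 (SE 0.08, edgeR adjusted p = 1.32e-05), with 0.68 and 0.49 within the sets of numbers. In the methionine cycle, Ahcyl1, a relative of S-adenosylhomocysteine hydrolase, rose by 0.60 and Mat2a, the enzyme that makes S-adenosylmethionine, fell by 0.48 on the log2 scale, while the other 2 of the 4 tested genes did not pass. Neither tested gene of glycine cleavage passed (Gcsh and Dld).

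**Figure D5:**
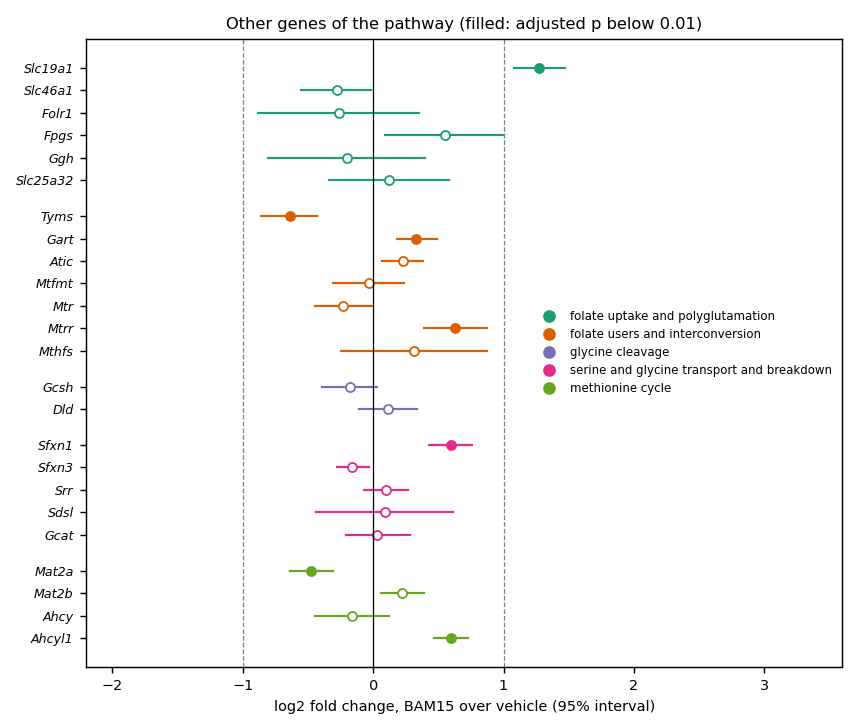
Log2 fold change of BAM15 over vehicle (x axis) with its 95% interval for the 24 tested genes of the related lists, coloured by list and filled where the adjusted p was below 0.01, with dashed lines at a 2-fold change. Slc19a1 lies past the right line, and the other filled points lie between the lines.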

How the data were processed

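RNA of 12 C2C12 libraries (6 BAM15, 6 vehicle) was sequenced by the authors from QuantSeq 3′ preparations as forward reads and analysed with BlueBee software. The counts as deposited are whole reads per Ensembl gene, without normalization. The submitters' processing notes name DESeq2 1.22.2 and the builds GRCm38 and mm10. The aligner, annotation and counting strand are not given in the sources used here. The authors also deposited a normalized signal table, in which each library's counts were found to be divided by a single factor (0.836 to 1.069), and it was used only for symbols and this check. Both tables hold 11 columns that belong to no sample of this series, which were not used.

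The tests across genes used edgeR 4.0.16 in R 4.3.3, with filterByExpr, TMM scaling, a robust quasi-likelihood fit with the condition as its only term and Benjamini-Hochberg adjustment over 12730 genes. Normalized counts are counts divided by the TMM-effective library size and scaled to a common size. Isozyme ratios were tested by exact permutation in Python 3.11.15 with scipy 1.17.1. Alternatives were DESeq2 1.42.0, limma-voom (limma 3.58.1), other scalings, filters, thresholds and blocks, sets of library numbers and each library left out. The scripts were tested on simulated data. The 10 enzymes and all gene lists were chosen with earlier results of these data known. Of the related lists, 2 genes are not reported here and were left out of their counts. Named genes are the 10 enzymes, cell type markers and genes whose exons overlap the last 400 bases of one of the 10 transcripts. Of the related lists, those with an adjusted p below 0.01 in all libraries or within a set of library numbers are named. Aldh1l1 and the tested genes of glycine cleavage are named as well. Promoters are from RefSeq, and gene positions from GENCODE M21 of GRCm38.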

Additional observations from a re-analysis of the deposited data

Results flagged for a closer look

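Of the 20 groups of 6 libraries formed by the 10 enzymes and both conditions, 1 had a library far from the others by Dixon's criterion. Vehicle replicate 1 held 572 normalized counts of Mthfd1l, where the other vehicle libraries held 454 to 485, and its gap to the nearest of these was 0.732 of the whole range, above the 95% critical value for 6 libraries. Chance gives about 1 such library in 20 groups.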

How the results depend on the processing

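The calls of Psph, Shmt2, Mthfd2 and Aldh1l2 and the missing calls of Psat1, Shmt1, Mthfd1 and Mthfd2l held under all 23 alternatives of test, scaling, filter, block and libraries. With a log2 fold change above 2 as the threshold 3 enzymes were called, 1 of them cytosolic. By the adjusted p alone Shmt1 also passed with DESeq2, limma-voom and without vehicle replicate 3. Within library numbers 1 to 3, Phgdh fell short of 2-fold (0.69), which left 1 cytosolic enzyme called and a cytosolic median of 0.69. Within numbers 4 to 6 the mitochondrial median was 1.51. Mthfd1l passed 2-fold in 5 alternatives (1.01 to 1.04), which were numbers 4 to 6 alone and the fits without BAM15 replicate 2, 4 or 5 or vehicle replicate 1. Signs turned for Mthfd1 within numbers 1 to 3 (−0.17), for Mthfd2l within numbers 1 to 3 (0.12) and without BAM15 replicate 2 (0.01), BAM15 replicate 5 (0.02) or vehicle replicate 5 (0.03; −0.08 to 0.03 over all libraries left out in turn), and for the ratio of Mthfd2l to Mthfd1 within numbers 1 to 3 (0.29, against −0.58 within numbers 4 to 6). None of the values of single genes passed the test, the ratio was not tested within the sets, and the causes of these changes were not tested.

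Whether the library numbers pair the conditions could not be told. The deviations of same-numbered libraries correlated by −0.076 to 0.311, and the libraries did not all match best with their own number. BAM15 libraries 1 to 3 each correlated best with vehicle library 3, and BAM15 libraries 4 to 6 each with vehicle library 6. BAM15 libraries that deviate alike will share a best match. The check therefore cannot show whether the sets of numbers, or the single numbers, run across both conditions. By chi-square per gene, vehicle library 5 was closest to vehicle libraries 1 (9.37) and 3 (10.4), and vehicle library 2 to vehicle library 6 (11.2). With these sets as a block, 5 enzymes and 942 genes in all were called. With the number as a replicate block 5 enzymes were called and 933 genes in all, against 927 without it, and the ratios of Shmt2 to Shmt1, Mthfd2 to Mthfd1 and Mthfd1l to Mthfd1 each had an adjusted p of 0.0417 by exact sign flips. Before adjustment each of these p-values was the smallest that sign flips over 6 library numbers allow.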
